A study of Mus musculus with 2 samples.

Results

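Insulin-like growth factor 1 (*Igf1*), its receptor (*Igf1r*) and the insulin-like growth factor binding protein genes (*Igfbp1* to *Igfbp7*) were followed in sorted cells of mouse embryonic forelimbs. These 9 genes were taken by symbol from the 22096 symbols listed, with no threshold on their values. ScxGFP-positive cells were set against ScxGFP-negative cells, both from mixed strain background embryos at E13.5 (day of gestation). In ScxGFP embryos a green fluorescent protein is expressed under regulatory DNA of *Scx*, the gene of the tendon progenitor factor scleraxis. Limbs of 3 pairs, 6 in all, were pooled for each sample before sorting, and both populations were sorted from limbs of reporter embryos. Each population gave 1 library. There was therefore no replicate check and no test, and every difference below describes these 2 libraries.

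IGF1 is a secreted growth factor that signals through IGF1R, a receptor tyrosine kinase that also binds IGF2. In developing limbs it is known for promoting growth of muscle and skeleton. The binding proteins hold IGFs in the extracellular space, where they can block them, store them or carry them to the receptor, and proteases that cut the binding proteins set the ligand free. *Igfbp7* encodes a more distant relative that binds IGFs weakly and is well known from blood vessels.

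Promoter sequence is shown for 3 genes whose values frame the results: *Igf1*, the member with the highest ratio, *Igfbp4*, the binding protein gene with the highest level in both libraries, and *Igfbp7*, the only measured member that was lower in ScxGFP-positive cells. Each RefSeq window (GRCm38.p6) runs 5′ to 3′ from 250 bases before a start site to 50 after it. Capitals mark the E-box motif CANNTG, the general letters bound by basic helix-loop-helix factors, the family of scleraxis. The motif reads the same on both strands, and no other motif was searched.
Igf1, chr10:87860861-87861160, plus strand: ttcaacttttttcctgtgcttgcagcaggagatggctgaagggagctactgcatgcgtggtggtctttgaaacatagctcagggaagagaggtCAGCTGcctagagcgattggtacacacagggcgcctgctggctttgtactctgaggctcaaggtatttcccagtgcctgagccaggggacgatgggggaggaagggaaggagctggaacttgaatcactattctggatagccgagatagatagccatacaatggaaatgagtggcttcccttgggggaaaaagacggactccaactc
Igfbp4, chr11:99040994-99041293, plus strand: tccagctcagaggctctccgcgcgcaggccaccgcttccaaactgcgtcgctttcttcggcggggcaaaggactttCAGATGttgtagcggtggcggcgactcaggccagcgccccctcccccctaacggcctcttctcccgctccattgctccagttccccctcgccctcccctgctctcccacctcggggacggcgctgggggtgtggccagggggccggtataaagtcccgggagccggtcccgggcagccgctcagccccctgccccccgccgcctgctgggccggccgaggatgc
Igfbp7, chr5:77407996-77408295, minus strand: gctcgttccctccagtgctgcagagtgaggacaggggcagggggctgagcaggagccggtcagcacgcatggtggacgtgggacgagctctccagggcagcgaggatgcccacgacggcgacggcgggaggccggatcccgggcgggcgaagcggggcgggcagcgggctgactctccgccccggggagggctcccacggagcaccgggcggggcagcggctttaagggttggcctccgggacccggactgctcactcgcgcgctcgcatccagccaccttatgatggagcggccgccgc
The *Igf1* window belongs to a start site 2846 bases downstream of the 5′ end of the RefSeq gene, and that of *Igfbp4* to one 1239 bases downstream of it, while the *Igfbp7* window lies at the gene's 5′ end. The motif occurred once in the first and once in the second window and was not found in the third. All 9 members matched the promoter table, with 10 windows. The motif was in 8 of them (80.0%), against 72.3% of all 32851 windows of this length, a share close to that background. CpG content varied widely among the windows. The *Igf1* window held 6 CpG dinucleotides, the *Igfbp4* window 27, the *Igfbp7* window 33 and the *Igf1r* window 48, against a median of 7 over all windows. These windows are in another build than the deposited positions, which are of mm9, and no site was carried from one build to the other.

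The label of the sort held for its own gene. *Scx* stood at 134 FPKM in the positive library and 1.69 FPKM in the negative library, where FPKM is fragments normalised to transcript length and to all mapped fragments. The 5 limb mesenchyme markers summed to 111 FPKM in positive and 106 FPKM in negative cells, with 0 at least 2-fold higher and 1, *Msx1*, at least 2-fold lower (1.12 against 8.24 FPKM). The forelimb regulator *Tbx5* stood at 27.4 against 15.9 FPKM, *Prrx1* at 37.8 against 27.8, *Twist1* at 32.3 against 32.2 and *Prrx2* at 12.1 against 21.999 FPKM. Differences are log2 ratios of FPKM + 1, positive over negative, which understate the change of genes at low levels. A gene counted as measured with at least 1 FPKM in either library, which left 12096 genes with a median log2 ratio of -0.27, a 1.20-fold shift toward the negative library. Of these, 488 (4.03%) were at least 2-fold higher in positive cells and 1207 (9.98%) at least 2-fold lower. That split depended on the scale: it was 684 higher and 879 lower with the median ratio set to 1, 654 and 914 when upper quartiles were made equal, and 1133 and 1164 with TPM, the FPKM brought to the same sum. Markers of several other cell types differed between the pools. All 8 macrophage markers, all 6 erythroid markers, all 8 epidermal markers and 7 of 8 endothelial markers were at least 2-fold lower in positive cells. So were 5 of 6 Schwann cell markers. At least 2-fold higher were 6 of 7 measured skeletal muscle markers and 5 of 6 tendon markers, *Scx* among them. Of 4 measured cartilage markers, 0 passed 2-fold in either direction. In pooled cells, fewer cells of a type and less RNA per cell cannot be told apart.

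Of the 9 genes, 7 were measured: *Igf1*, *Igf1r* and 5 binding protein genes. *Igf1* alone passed 2-fold on the FPKM + 1 scale, being higher in ScxGFP-positive cells. *Igfbp4* and *Igfbp3* were higher by slightly less than 2-fold and *Igfbp5* by 1.72-fold. *Igf1r* and *Igfbp2* were close to equal, and *Igfbp7* was lower by less than 2-fold. The 1 of 7 at least 2-fold higher stands beside 4.03% of all measured genes, and the 0 of 7 at least 2-fold lower beside 9.98%. With a single gene past the threshold, the count says little about the members as a set. Their median log2 ratio was 0.78, and 6 of 7 lay above 0, as did 26.2% of all measured genes. The threshold fell among closely spaced values: on the 3 other scalings *Igfbp3*, *Igfbp4* and *Igfbp5* passed it too, which made 4 of 7. No measured member changed direction under any of the 8 processing alternatives.

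**Figure D1:**
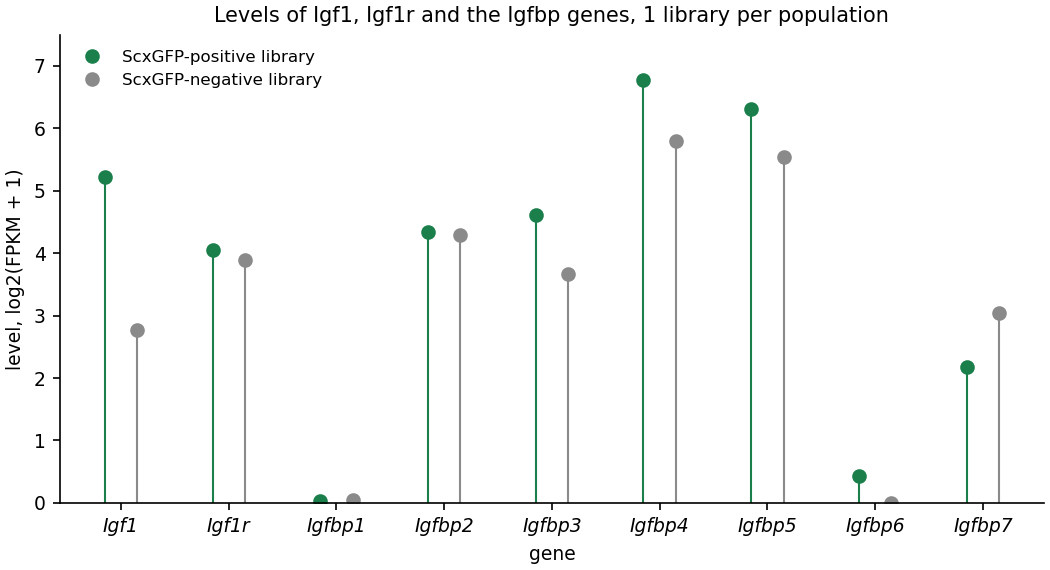
Level of each gene on the scale log2(FPKM + 1) (vertical axis) in the ScxGFP-positive (green, left) and the ScxGFP-negative library (grey, right); each point is 1 library, so there are no error bars. *Igf1* shows the widest gap, 36.2 against 5.84 FPKM, and *Igfbp1* and *Igfbp6* lie near 0 in both.

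The ligand gene *Igf1* (mm9 chromosome 10, 87321801 to 87399792) had 36.2 FPKM in the ScxGFP-positive and 5.84 FPKM in the ScxGFP-negative library. Its log2 ratio was 2.44, a 5.44-fold difference on the FPKM + 1 scale, and 119 of the 12096 measured genes had a higher one. By level it was the third of the 9 genes in the positive library and the seventh in the negative library. The ratio stayed at least 2-fold under all 8 alternatives, between 1.93 and 3.03. Macrophages are a known source of *Igf1* in other tissues, and the macrophage markers summed to 10.7 FPKM in positive and 360 FPKM in negative cells, the opposite direction to *Igf1*, with none of the 8 at 0. Developing muscle is another known source. The 8 muscle markers summed to 154 FPKM in positive and 20.0 FPKM in negative cells, the same direction as *Igf1*, with none at 0 in either library. The part of either cell type in the result was not tested.

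*Igf1* is listed with 5 RefSeq transcripts from 2 start sites 2055 bases apart, and both sets were higher in ScxGFP-positive cells. Transcripts from the upstream start summed to 15.8 FPKM in positive and 1.76 FPKM in negative cells (log2 ratio 2.61). Those from the downstream start summed to 20.4 FPKM in positive and 4.08 FPKM in negative cells (log2 ratio 2.08). Their split within the gene thus differed, with 43.6% of *Igf1* FPKM on the upstream start in positive cells and 30.2% in negative cells. Nearly all of the level was assigned to NM_001111275 from the upstream start (14.2 against 1.76 FPKM) and NM_184052 from the downstream start (20.4 against 4.08 FPKM). NM_184052 also ends at 87378515, while the other *Igf1* transcripts end at 87399792. A split by start therefore cannot be told apart from a split by end position. NM_184052 is short, at 1087 bases against 7069 for NM_001111275, so its FPKM rests on less sequence: about 50694 aligned bases in positive and 10579 in negative cells, against 229712 and 29762 for the longer one. NM_010512, which shares the upstream start, had 1.58 FPKM in positive cells and almost 0 in negative cells. Transcripts of a gene can share exons, so the division among them is an estimate, and how far it is in error could not be measured here.

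**Figure D2:**
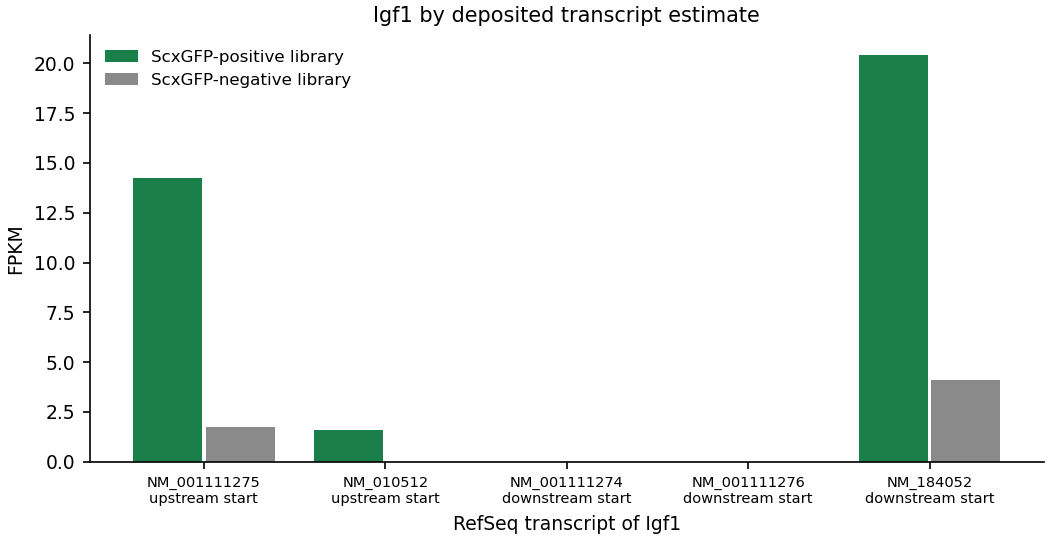
Deposited FPKM (vertical axis, linear from 0) of the 5 *Igf1* transcripts in the ScxGFP-positive (green, left) and ScxGFP-negative library (grey, right), ordered by start site. NM_001111275 and NM_184052 carry nearly all of the level in both libraries and are higher in the positive one.

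The receptor gene *Igf1r* (chromosome 7, 75097143 to 75378553) stood at 15.5 FPKM in ScxGFP-positive and 13.9 FPKM in ScxGFP-negative cells. The log2 ratio of 0.15 lay 0.41 above the median of all genes. Without replicates no interval can be put on so small a difference. Since FPKM is per length, ligand and receptor levels can be set side by side: *Igf1* stood at 2.34 times the FPKM of *Igf1r* in positive cells and at 0.420 times in negative cells. The *Igf1* level rests on the estimated division among its transcripts, with 56.4% in positive and 69.8% in negative cells on the short NM_184052. The rank of *Igf1* and every level set against it, here or below, carry that uncertainty.

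Among binding protein genes *Igfbp4* had the highest level. It encodes a soluble binding protein known mainly as an inhibitor of IGF action until it is cleaved. *Igfbp4* (chromosome 11, 98902574 to 98913957) stood at 109 FPKM in ScxGFP-positive and 54.5 FPKM in ScxGFP-negative cells, a log2 ratio of 0.98, the nearest of the 7 to the 2-fold threshold from below. *Igfbp5* (chromosome 1, 72904639 to 72921439), whose product binds extracellular matrix and is known from muscle and bone, stood at 78.5 against 45.3 FPKM, a log2 ratio of 0.78. *Igfbp3*, which encodes the main carrier of IGFs in adult serum, stood at 23.4 FPKM in positive and 11.7 FPKM in negative cells, a log2 ratio of 0.94. All 3 lay about 1 log2 unit above the median of all genes, by 1.25, 1.05 and 1.21. *Igfbp2*, whose product also binds integrins, did not share that pattern. It stood at 19.4 FPKM in positive and 18.6 FPKM in negative cells, a log2 ratio of 0.06.

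*Igfbp7* was the only measured member with a negative ratio. It stood at 3.52 FPKM in ScxGFP-positive and 7.24 FPKM in ScxGFP-negative cells (chromosome 5, 77778265 to 77837070), a log2 ratio of -0.87, which is 0.60 below the median of all genes. Its ratio ranged from -1.02 to -0.52 over the alternatives. It passed 2-fold with a pseudocount of 0.1 and when each gene was represented by its highest transcript. The transcript NM_008048 had 3.07 FPKM in positive cells, where NM_001159518 of the same span took another 0.446 FPKM, and 7.24 FPKM in negative cells, nearly all of the level there. Endothelial markers moved in the same direction and further: 8 of them summed to 3.64 FPKM in positive and 56.8 FPKM in negative cells, which is 6.41% of the negative value, against 48.6% for *Igfbp7*. None of the 8 was at 0, and their part in the *Igfbp7* difference was not tested.

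*Igfbp1* and *Igfbp6* were under 1 FPKM in both libraries. *Igfbp1*, best known from liver, stood at 0.0194 FPKM in ScxGFP-positive and 0.0362 FPKM in ScxGFP-negative cells, on about 67.3 and 131 aligned bases. *Igfbp6*, whose product prefers IGF2 over IGF1, stood at 0.352 FPKM in positive cells, on about 1037 aligned bases, and is listed at 0 in negative cells. At such levels no fold is given. Neighbouring members could differ in level: *Igfbp1* lies 3546 bases from *Igfbp3* on chromosome 11 with no listed gene between them, yet only *Igfbp3* was measured. *Igfbp2* and *Igfbp5* are neighbours in the same way on chromosome 1, 5593 bases apart, and their log2 ratios were 0.06 and 0.78.

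**Figure D3:**
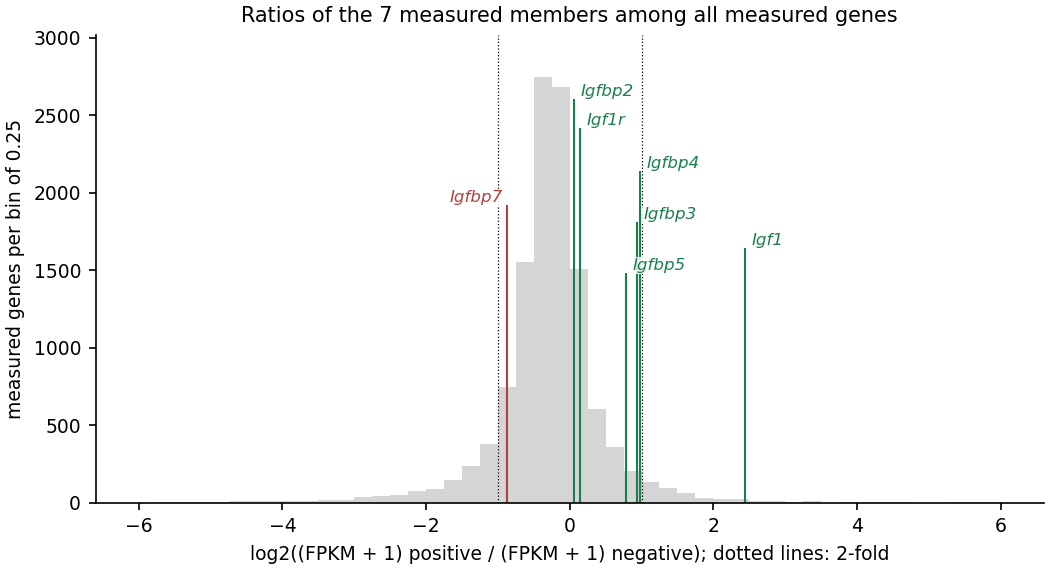
Number of measured genes, of 12096, per bin of 0.25 in log2 ratio of FPKM + 1, positive over negative (grey bars). Bins below -6 or above 6 are not drawn. A vertical line stands at each of the 7 measured members, and line heights carry no value. *Igf1* lies far to the right at 2.44, *Igfbp3*, *Igfbp4* and *Igfbp5* lie left of the dotted 2-fold line, and *Igfbp7* is alone on the negative side.

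Summed over the 7 genes, binding protein transcripts amounted to 234 FPKM in ScxGFP-positive and 137 FPKM in ScxGFP-negative cells, so the positive sum was 170% of the negative one. *Igfbp4* made up 46.5% of the sum in positive and 39.6% in negative cells, and *Igfbp5* 33.6% and 33.0%. Together these 2 genes held 80.1% of the sum in positive and 72.6% in negative cells. *Igfbp2* held a smaller share in positive cells, 8.27% against 13.52%, as did *Igfbp7*, 1.504% against 5.27%. Shares do not depend on how the libraries are scaled against each other. Relative to *Igf1*, binding protein transcript was less abundant in positive cells, where the sum was 6.46 times the *Igf1* level, against 23.5 times in negative cells.

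**Figure D4:**
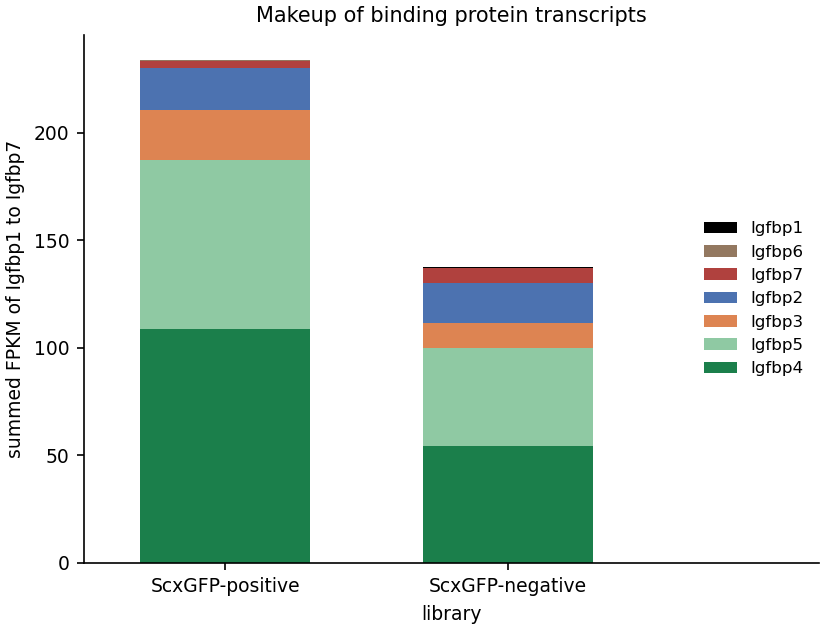
Summed FPKM of *Igfbp1* to *Igfbp7* (vertical axis, linear from 0) in the ScxGFP-positive (left) and ScxGFP-negative library (right), stacked by gene. The positive bar reaches 234 and the negative bar 137 FPKM, and *Igfbp4* and *Igfbp5* fill most of each.

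Other genes of the pathway were taken from 4 lists of 54 genes, of which 45 were measured. In the ScxGFP-positive library 6 of 45 were higher by 2-fold or more (13.3%, beside 4.03% of all measured genes) and 0 were lower by as much (beside 9.98%). The count was 2 with a pseudocount of 5 and 12 with TPM. Of the 6, *Pappa*, *Pappa2* and *Htra3* were measured only through the positive library, where they are high, so the count is a description. By list, 4 of the 6 were among the extracellular modulators, 1 (*Igf2r*) was among ligands and receptors, and 1 was the growth hormone receptor gene.

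The second ligand gene, *Igf2*, an imprinted fetal growth factor gene, stood at 398 FPKM in ScxGFP-positive and 220 FPKM in ScxGFP-negative cells, a log2 ratio of 0.86. It exceeded *Igf1* by 11.0 times in positive and 37.6 times in negative cells, so *Igf1* made up 8.34% of the combined ligand level in positive and 2.59% in negative cells. *Igf2r*, whose product takes up IGF2 for degradation, stood at 25.8 against 10.9 FPKM (log2 ratio 1.17). The insulin receptor gene *Insr* stood at 5.41 against 6.14 FPKM, with a log2 ratio of -0.16 whose sign turned with the scaling.

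Among 9 listed genes for extracellular modulators, 4 protease genes passed 2-fold toward ScxGFP-positive cells, none above 6.32 FPKM in either library. They were 4 of 6 measured (beside 4.03% of all measured genes), with 0 at least 2-fold lower (beside 9.98%) and a median log2 ratio of 1.19. *Pappa*, the gene of the metalloprotease PAPP-A that cleaves IGFBP4, stood at 1.59 FPKM in ScxGFP-positive and 0.254 FPKM in ScxGFP-negative cells. Its relative *Pappa2*, whose product cleaves IGFBP3 and IGFBP5, stood at 2.61 against 0.215 FPKM. Of the serine protease genes, *Htra1*, whose product is known to cleave IGFBP5, stood at 5.86 against 1.70 FPKM and its relative *Htra3* at 6.32 against 0.529 FPKM, with log2 ratios of 1.34 and 2.26. With a pseudocount of 5 only *Htra3* of these 4 stayed above 2-fold, at a log2 ratio of 1.03. *Stc1*, the gene of the PAPP-A inhibitor stanniocalcin 1, stood at 2.17 against 1.36 FPKM, and *Kazald1*, which encodes an IGFBP-related secreted protein, at 1.19 against 0.152 FPKM, both under 2-fold on the FPKM + 1 scale. *Pappa*, *Pappa2*, *Htra3* and *Kazald1* passed the minimum of 1 FPKM only through the positive library, so they could not have counted as lower, and the list's count and median are a description. *Igfals*, which encodes the acid-labile subunit of the serum IGF complex, is listed at 0 in both.

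Genes that carry the signal inside the cell stayed within 2-fold between the pools on the FPKM + 1 scale. Of 31 measured, 0 were at least 2-fold higher (beside 4.03% of all measured genes) and 0 at least 2-fold lower (beside 9.98%). With 31 genes and shares this small, these counts are a description. Their median log2 ratio was -0.14, which is 0.13 above the median of all genes. Among the highest ratios were those of *Irs1* and *Irs2*, which encode docking proteins of the insulin and IGF1 receptors (6.47 against 3.98 and 8.28 against 5.37 FPKM). The lowest belonged to the adaptor gene *Grb2* (2.99 against 6.54 FPKM), the ERK1 gene *Mapk3* (11.0 against 19.7 FPKM) and the PI3-kinase subunit gene *Pik3cb* (0.537 against 1.45 FPKM). Of 5 genes of the growth hormone axis only the receptor gene *Ghr* passed 2-fold on the FPKM + 1 scale. That made 1 of 5 higher (beside 4.03% of all measured genes) and 0 lower (beside 9.98%), too few to read as a set. *Ghr* stood at 13.8 FPKM in positive and 3.75 FPKM in negative cells, a log2 ratio of 1.64. The STAT genes *Stat5a* and *Stat5b*, the kinase gene *Jak2* and the feedback gene *Socs2*, which act downstream of that receptor, had log2 ratios of -0.71, -0.31, -0.39 and -0.07, the last with a sign that turned with the scaling. *Stat5a* was at a low level, 0.396 FPKM in positive and 1.28 FPKM in negative cells. Its log2 ratio was -1.48 with a pseudocount of 0.1.

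**Figure D5:**
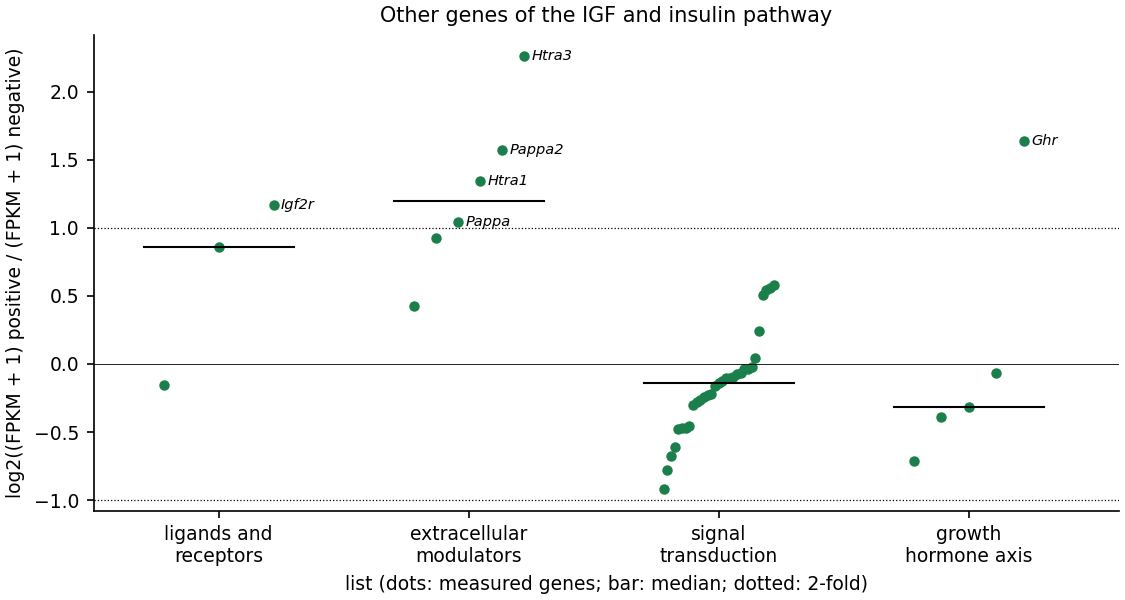
Log2 ratio of FPKM + 1, positive over negative (vertical axis), for the 45 measured genes of the 4 pathway lists; each dot is a gene, bars are list medians, dotted lines mark 2-fold and the 6 genes past it are named. Dots of the extracellular list lie above 0 and those of the signal transduction list stay within the dotted lines.

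Genes most like *Igf1* and *Igfbp7* were sought among 11019 genes by the distance between their levels over both libraries, in log2(FPKM + 1). Nearest to *Igf1* were *Sulf1* (37.8 FPKM in positive and 4.69 in negative cells), which encodes an extracellular heparan sulphate sulphatase, the homeobox gene *Zfhx4* (29.8 and 4.62) and *Mtap1b* (27.1 and 5.26), which encodes a microtubule-associated protein. Their distances were 0.27, 0.40 and 0.43. Nearest to *Igfbp7* were *Zfp710*, *Mobkl1b* and *Scand1*, at distances of 0.017, 0.020 and 0.021. With 2 libraries such likeness means only alike levels in each.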

How the data were processed

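RNA was measured in 2 libraries, 1 from ScxGFP-positive and 1 from ScxGFP-negative forelimb cells. Per the labels' protocols, the RNeasy micro kit gave total RNA and NuGEN Ovation RNA-Seq v2 the cDNA, a chemistry that does not mark strand. Bowtie 0.12.7, TopHat 1.4.1 and build mm9 were named, per the submitters' processing notes; which program and version estimated abundance was not given in the sources used here. The deposited FPKM and coverage are per RefSeq transcript, per the file headers. FPKM was normalised by the authors to length and mapped fragments, and deposited coverage is the estimated depth of aligned bases; coverage times deposited length gave aligned bases, 0.687 gigabases over all transcripts in positive and 0.875 in negative cells. Read counts are unknown, so no counting interval is given. Positions count from 0 in the files, so 1 was added to starts.

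FPKM was summed per symbol; symbols with a failed row were missing, and all 14 transcripts of the 9 genes had status OK in both libraries. Ratios used a pseudocount of 1, computed in Python 3.11.15 with pandas 2.3.3. The computation was tested on simulated data in which all levels were raised, so that test does not bear on genes at low levels. Named were all 9 genes, up to 3 highest and 3 lowest of each pathway list, *Igf2*, *Igf2r*, *Insr*, and the 3 nearest genes of *Igf1* and *Igfbp7*; 1 gene so named is not reported here, and 1 listed gene was not analysed here. The genes and lists were chosen with earlier results of these data known.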

Additional observations from a re-analysis of the deposited data

How the results depend on the processing

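The 8 alternatives were another pseudocount (0.1 or 5), another minimum (none or 5 FPKM), another scaling (median ratio set to 1, equal upper quartiles, or TPM) and the highest transcript in place of the sum. The number of members at least 2-fold higher, 1 as reported, was 4 under each of the 3 scalings. The number at least 2-fold lower, 0 as reported, was 1 (*Igfbp7*) with a pseudocount of 0.1 and with the highest transcript. The members' median log2 ratio of 0.78 was 0.44 without the minimum, which adds *Igfbp1* and *Igfbp6*, and 1.11, 1.06 and 1.23 under the median, quartile and TPM scalings. The positive binding protein sum, 170% of the negative one, was 215%, 208% and 232% under those scalings. The scalings multiply a whole library, but with the pseudocount kept at 1 the log2 ratios did not all shift alike. TPM also raises all values against the pseudocount, so its counts mix both effects. With TPM the log2 ratio of *Pappa* went from 1.05 to 2.33 and that of *Stat5a* from -0.71 to -0.99. Pathway genes at least 2-fold higher, 6 as reported, were 2 with a pseudocount of 5 and 12 with TPM, and those at least 2-fold lower, 0 as reported, were 3 with a pseudocount of 0.1. Over all measured genes, 488 higher and 1207 lower as reported, the counts were 222 and 394 with a pseudocount of 5 and 323 and 658 with a minimum of 5 FPKM, and the number higher was 1133 with TPM. Of 207 values of named genes under alternatives, 6 turned sign, all of *Insr* or *Socs2*, and 0 of genes past 2-fold. No paired analysis was possible because each population has 1 library and the results come from no test. With 1 library per population, leaving out a replicate could not be tried, and the spread between samples is unknown.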
